A study of Mus musculus with 12 samples.

Results

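The genes of antigen presentation by MHC class II were followed through 12 single-cell libraries of the mouse mammary gland. The members were chosen by name and by no cut on their level, but with earlier results of these data known. They were H2-Aa, H2-Ab1, H2-Eb1, H2-DMa, H2-DMb1, Cd74 and Ciita, which are 7 of the 27998 genes listed in every library. All 7 were detected. Each was read in cells gated by marker genes, none of which is a member, and cells were compared over libraries and not as replicates. Dendritic cells and macrophages carried the highest levels of most members. B cells without plasma cell markers, read at a looser mitochondrial limit, stood near macrophages for Cd74 and Ciita. Fibroblasts lay below macrophages by 6.07 or more on the log2 scale for every member. In macrophages the libraries of mice given estradiol alone were the lowest of the hormone layout for 5 of the 7. None of the 7 passed the adjusted test by edgeR in any hormone contrast of macrophages, and how many of all genes separate in this way was not counted.

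By position on mm10 (GENCODE vM21), 5 members lie in the major histocompatibility complex of chromosome 17: H2-DMa (34119541 to 34139101, plus strand), H2-DMb1 (34153072 to 34160230, plus strand), H2-Ab1 (34257689 to 34269419, plus strand), H2-Aa (34282744 to 34287823, minus strand) and H2-Eb1 (34305867 to 34316674, plus strand). Cd74 lies on chromosome 18 (60803848 to 60812652, plus strand) and Ciita on chromosome 16 (10480059 to 10528418, plus strand). All 7 are annotated as protein coding. An antisense gene, Gm20513, overlaps H2-Eb1, Brd2 overlaps H2-DMa on the other strand, and Dexi overlaps Ciita on the other strand. H2-DMb1 has a near-identical neighbour, H2-DMb2, so the counts of this pair are uncertain where a read fits both.

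MHC class II molecules display peptides from taken-up proteins to CD4+ T cells. H2-Aa and H2-Ab1 encode the alpha and beta chains of I-A, the class II molecule of C57BL/6 mice, and H2-Eb1 encodes the beta chain of I-E, whose alpha chain gene is defective in this strain. Cd74 encodes the invariant chain, which escorts new class II molecules to the endosome and blocks their groove, and H2-DMa with H2-DMb1 encode H2-DM, which exchanges the last piece of the invariant chain for a peptide. Ciita encodes the class II transactivator, which does not bind DNA itself but acts on factors (RFX, CREB and NF-Y) that sit on the X and Y boxes of class II promoters. Dendritic cells, macrophages and B cells are the professional presenting cells; a plasma cell, which derives from a B cell, is known to shut down Ciita.

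The mice were C57BL/6J females of 43 weeks, and the 4th mammary glands were dissociated after their lymph nodes were taken out. All groups except Intact had received 4-vinylcyclohexene diepoxide (VCD, 160 mg per kg per day for 15 days), which destroys ovarian follicles and models menopause. The VCD groups were given vehicle (VCD_Vehicle), 17β-estradiol (VCD_E2, 1 µg per day), estradiol with progesterone (VCD_E2_P4, 1 mg P4 per day) or estradiol with the estrogen receptor degrader ICI (VCD_E2_ICI, 5 mg given 1 time). Hormones were given for 1 week. A second vehicle group (VCD_Vehicle_NormEnv) could have met flame retardants from plastic cages. Polybrominated diphenyl ethers (PBDEs) were fed at a low dose (0.05 mg PBDE-47, 0.0028 mg PBDE-100 and 0.0063 mg PBDE-153 per kg per day) for 20 weeks or at a high dose (1, 0.056 and 0.126 mg) for 1 week, each without hormone (VCD_Low_PBDE, VCD_High_PBDE), with E2 (VCD_Low_E2, VCD_High_PBDE_E2) or with E2 and P4 (VCD_Low_E2_P4, VCD_High_PBDE_E2_P4). PBDE dose and duration therefore cannot be told apart.

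Each group was 1 library, and the number of mice behind it is not given in the sources used here. Groups were therefore tested only in the 9 VCD libraries that cross 3 hormone states (none, E2, E2 + P4) with 3 PBDE states (none, low, high), where 1 factor's states are replicated over the other; Intact, VCD_Vehicle_NormEnv and VCD_E2_ICI are given as values. A p-value thus measures the spread between libraries that also differ in the other factor. Libraries held 41737881 to 109224969 unique molecular identifiers (UMIs, 1 per captured transcript), and 46257 of 58620 barcodes passed the filters, 72.68 to 84.81% per library. Among the passing cells, 556 had a barcode that was also found in another library, and the largest overlap of a pair was 3.75% of the smaller library. The file names carried 2 kinds of run tag: high PBDE and no PBDE never shared 1, so these cannot be told apart.

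The promoters are shown because Ciita acts through them. Of the 7 members, 4 had an entry in the RefSeq promoter table (GRCm38.p6; H2-DMa with 2 starts), each of 300 bases, from 250 before to 50 after the start. H2-Ab1, Cd74 and Ciita had no entry. Motifs of the X box (CTNGNAAC) and the Y box (TGATTGG, a reverse CCAAT box) were searched on both strands, and were picked after the sequences had been seen. In the lines below, capitals mark the X and then the Y motif, read along the gene's own strand.

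H2-Aa, chr17:34287847-34287927, minus strand: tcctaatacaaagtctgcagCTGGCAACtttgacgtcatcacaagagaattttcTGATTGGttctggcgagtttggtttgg

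H2-Eb1, chr17:34305753-34305832, plus strand: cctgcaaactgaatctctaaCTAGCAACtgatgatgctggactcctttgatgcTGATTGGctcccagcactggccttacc

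In H2-Aa the X motif began 84 bases and the Y motif 50 bases before the start, and in H2-Eb1 they began 94 and 61 bases before it. H2-DMb1 held the X letters CTAGTAAC 97 bases and the Y letters 63 bases before its start. The step from X to Y was 34, 33 and 34 bases in these 3 genes. H2-DMa held neither motif at either start, and H2-DMb2 held the Y motif alone. Both H2-DMa windows (34122582 to 34122881 and 34125268 to 34125567) lie inside the annotated gene. Sequence before its annotated start was therefore not searched. Among all 32851 promoters of this table, 13.2% held the X motif, 7.82% the Y motif and 1.07% both. A match is a run of letters and was not tested for binding.

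Cells were gated by how many of a type's markers they held: 1069 macrophages (C1qa, C1qb, C1qc, Adgre1, Mrc1, Csf1r and Fcgr1 among others), 614 dendritic cells (166 of the DC1 list with Xcr1 and Clec9a, 448 of the DC2 list with Cd209a and Zbtb46), 235 cells with B markers and 33179 fibroblasts. Every library held 49 to 154 macrophages and 23 to 93 dendritic cells. The B gate held 5 to 70 cells per library, and 213 of its 235 cells (90.6%) also held at least 3 of 5 plasma cell markers such as Jchain and Mzb1; its label therefore goes against these genes, and it is called the B-lineage gate here. Most B cells without those markers had over 5% mitochondrial UMIs. With that limit raised to 10% there were 409 of them, with a median of 4155 UMIs, and they are given beside the gate.

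Levels are the UMIs of a gene per 1000000 UMIs of the same cells (CPM). Libraries were made from transcript 3′ ends, so a level counts molecules and carries no length term. In macrophages, all libraries pooled, H2-Aa stood at 7149, H2-Ab1 at 5782 and H2-Eb1 at 6098 CPM, Cd74 at 18740 CPM, H2-DMa at 515.3 CPM, H2-DMb1 at 528.7 CPM and Ciita at 25.32 CPM. DC2 cells stood at 10410, 10090, 9021, 28290, 839.9, 922.6 and 18.23 CPM in the same order, and DC1 cells at 9666, 9526, 8154, 23820, 733.1, 953.3 and 20.80 CPM. Both dendritic subsets thus stood above macrophages for every member except Ciita.

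**Figure D1:**
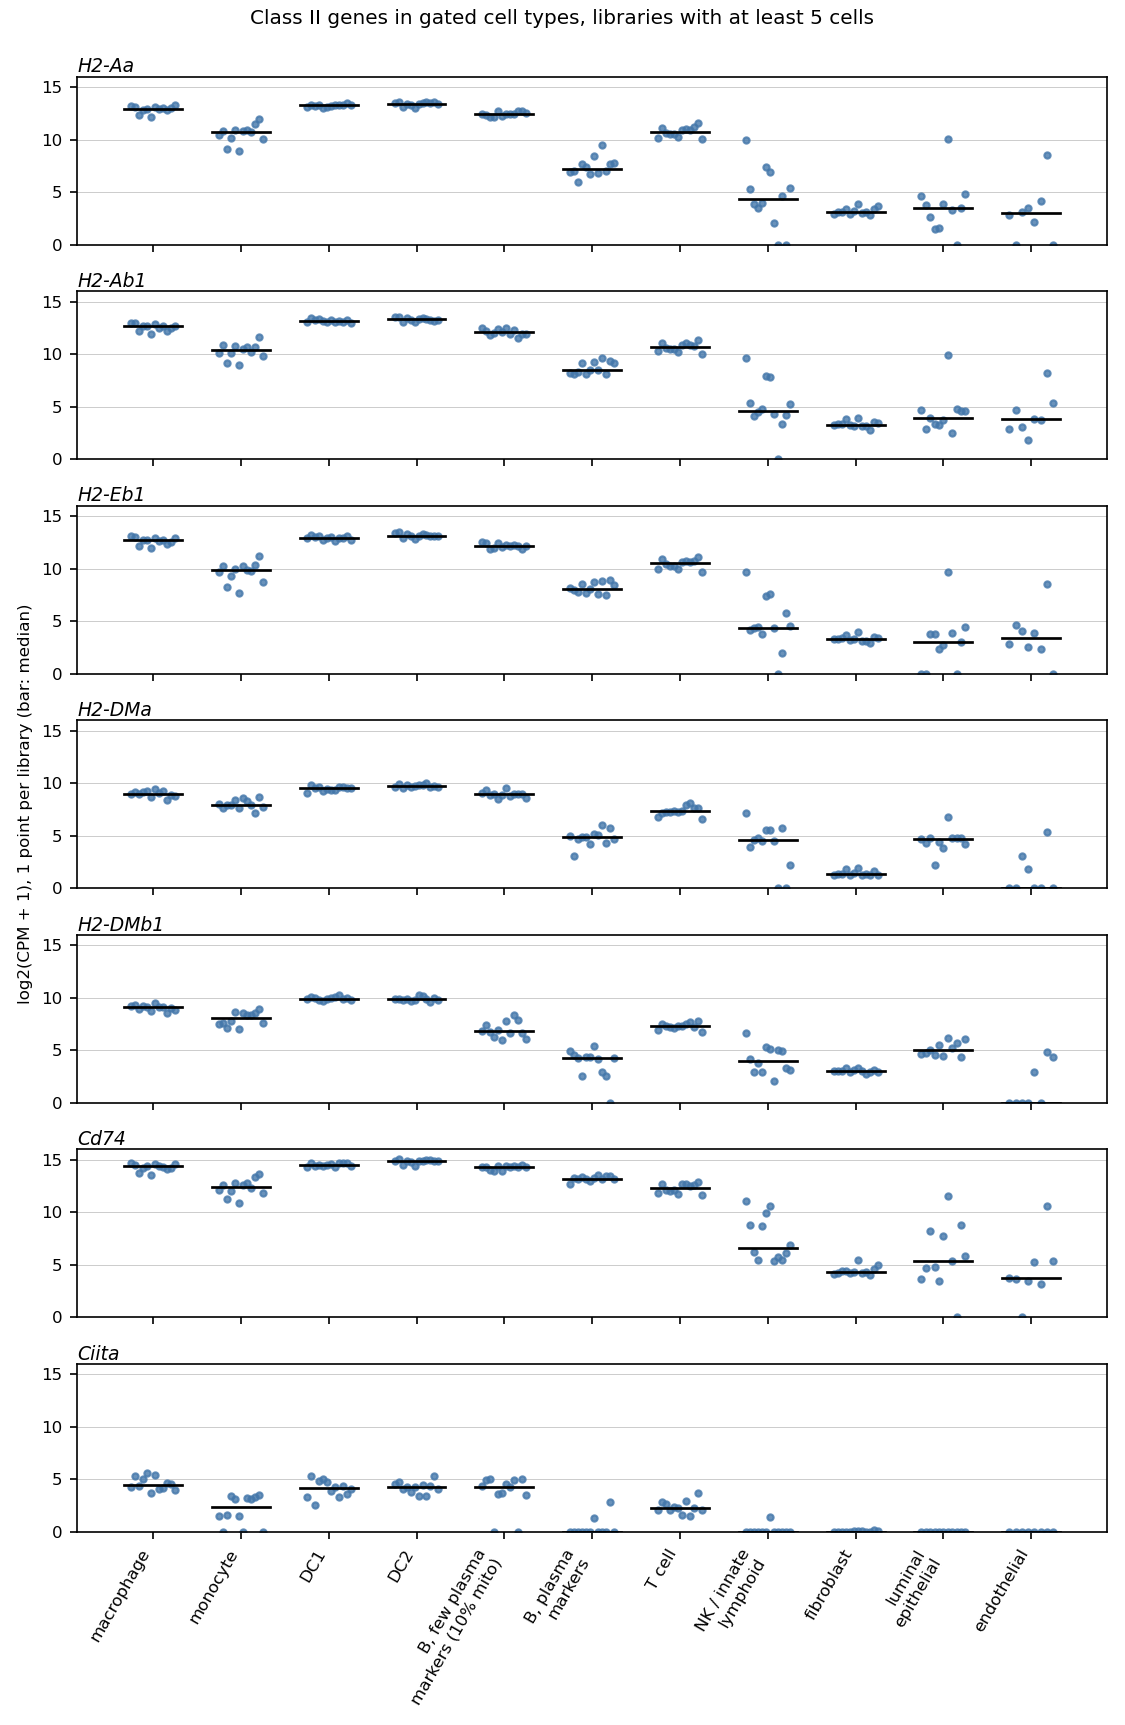
Level of each member as log2(CPM + 1) in 11 gated populations, 1 panel per gene. Each point is a library with at least 5 cells of the population and each bar the median of those libraries; macrophages and both dendritic gates lie at or near the top of all panels, with the B gate of few plasma markers beside them for Ciita, and fibroblasts, for H2-DMb1 at 5.805 to 9.003 CPM, at or near the bottom.

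Between types, dendritic cells had higher levels than macrophages for 6 of the 7 members. This was tested over sums per library with the library as a block (edgeR quasi-likelihood test, Benjamini-Hochberg over all genes, threshold 0.05), where 56.9% of all genes differed between these types. H2-Aa averaged 10480 CPM in dendritic cells and 7776 CPM in macrophages, a log2 difference of 0.59 (SE 0.169, adjusted p = 0.00296). H2-DMb1, the DM beta chain, averaged 953.3 against 539.0 CPM, which was 0.98 on the log2 scale (SE 0.0791, adjusted p = 8.39e-14). H2-Ab1 differed by 0.87, H2-DMa by 0.82, and H2-Eb1 and Cd74 by 0.59 each. Ciita was the exception, at 18.87 CPM in dendritic cells and 25.45 CPM in macrophages (log2 difference −0.25, SE 0.215, adjusted p = 0.329). H2-Aa and H2-Eb1 each passed in 19 of 20 alternatives, with adjusted p of up to 0.105 and 0.0554.

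Other class II genes set these types apart by more. H2-Oa and H2-Ob encode H2-DO, the inhibitor of H2-DM: H2-Oa averaged 76.69 CPM in dendritic cells and 4.144 CPM in macrophages, and H2-Ob 72.5 and 5.465 CPM, log2 differences of 4.36 and 3.98. Of 4 other class II genes tested, 3 were higher in dendritic cells and none lower. Of 9 genes of endosomal processing, 7 were lower in dendritic cells and 1, Ifi30 (a thiol reductase of the endosome), was higher by 0.82. The steepest of the 7 were Lgmn, the asparaginyl endopeptidase, at 84.34 against 1126 CPM, and the cathepsin genes Ctsl at 43.27 against 523.2 CPM and Ctsb at 321.5 against 3211 CPM. Cd80, a ligand that costimulates T cells, was 2.15 higher on the log2 scale and Cd86 0.78 lower, in a list of 4 where 3 were higher and 1 lower. Of 6 promoter-bound factors 3 were higher and 2 lower, of 8 genes of the interferon-gamma route 4 and 2, of 3 genes of class II turnover 0 and 2, of 3 of the Cd74 ligand and co-receptor list 2 and 1, and of 2 receptors that read class II 1 and 0. The ubiquitin ligase gene March8, which acts in turnover, was 2.66 lower.

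The B-lineage gate lay below macrophages for all 7 members, where 66.3% of all genes differed. The chains were lower by far more than the invariant chain: H2-Aa averaged 364.1 CPM, a log2 difference of −4.45 (SE 0.231), and Cd74 averaged 9879 CPM, a difference of −0.92 (SE 0.130, adjusted p = 5.76e-08). Ciita was close to absent, with 4 UMIs among 4274192 in 235 cells, 0.936 CPM (95% exact Poisson interval 0.255 to 2.40, which covers counting error only). Against the same gate, dendritic cells were higher for all 7, where 59.6% of all genes differed.

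The cells of the B gate without plasma markers were unlike the gate as a whole. At the 10% mitochondrial limit they stood at 5213 CPM for H2-Aa, 4033 CPM for H2-Ab1, 4397 CPM for H2-Eb1, 467.6 CPM for H2-DMa, 18470 CPM for Cd74 and 21.42 CPM for Ciita. The plasma-marked cells at the same limit stood at 239.8, 468.1, 321.3, 34.09, 10050 and 1.003 CPM. With the unmarked cells in place of the gate, 4 of 7 members were below macrophages, where 5968 of 10644 genes differed. These were the 3 chains, by 0.56 to 0.61 on the log2 scale, and H2-DMb1, by 2.17. H2-DMa (−0.17, adjusted p = 0.180), Cd74 and Ciita did not pass the test, and the Ciita difference of dendritic minus unmarked B cells was then −0.01 (adjusted p = 0.992). H2-DMb1 was the member lowest in B cells relative to macrophages, at 114.1 CPM. H2-Eb2, a class II beta gene, was higher in the B-lineage gate (18.68 CPM) than in macrophages (0.478 CPM), and so was H2-Ob (45.53 CPM). Of 9 endosomal genes 8 were lower in the gate than in macrophages and none higher.

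Monocytes, gated by Ly6c2, Plac8 and Chil3 among others, lay below macrophages for each member. H2-Aa was at 1386 CPM there, Cd74 at 4845 CPM and Ciita at 4.134 CPM. The 15 cells of the mature DC gate (Ccr7, Fscn1) stood at 4282 CPM for H2-Aa and 121.1 CPM for H2-DMa, with no UMI of Ciita. T cells showed 1575 CPM of H2-Aa, but 222 of 2480 T-gated cells (8.95%) with 20 or more H2-Aa UMIs held 98.4% of it. Those cells carried a median of 7 of 16 myeloid markers, against 1 in the other T cells.

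Over the whole gland, dendritic cells (with the mature DC gate, 1.36% of the passing cells) held 34.3% and macrophages (2.31%) 29.0% of H2-Aa UMIs. A further 22.1% lay in cells that no gate took, and fibroblasts, 71.7% of the cells, held 1.42%. For H2-DMb1 the share of fibroblasts was 12.2%, the highest of the 7.

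Over 12 gated types, the genes whose level was most like the mean of the members were Cd180 (r = 0.976), Cd83 (r = 0.967), Pld4 (r = 0.966), Ly86 (r = 0.958), Gm6377 (r = 0.953), Fcgr2b (r = 0.949), Pkib (r = 0.941) and Ryr1 (r = 0.937), out of 5835 genes. Cd83 encodes a surface protein that guards class II from ubiquitination, and Cd180 and Ly86 encode partners of a receptor of presenting cells. Pairs of members correlated over the types with r of 0.803 to 0.996 (median 0.926). These are descriptions over 12 points that share libraries.

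In macrophages, the question was whether hormone or PBDE moved the presentation genes. Before any test, the levels of H2-Ab1 over the 9 libraries were 7817 CPM in VCD_Vehicle, 6463 in VCD_Low_PBDE and 6347 in VCD_High_PBDE without hormone. With E2 alone they were 4565 CPM in VCD_E2, 3791 in VCD_Low_E2 and 4548 in VCD_High_PBDE_E2. With E2 and P4 they were 6603 CPM in VCD_E2_P4, 7421 in VCD_Low_E2_P4 and 5580 in VCD_High_PBDE_E2_P4. The 3 libraries of E2 alone were below all the other 6, and those with P4 overlapped the libraries without hormone.

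Cd74 stood at 23890, 22080 and 20840 CPM without hormone (VCD_Vehicle, low and high PBDE). It stood at 13830, 11830 and 17680 CPM with E2 alone and at 19130, 24070 and 18500 CPM with E2 and P4, in the same order of PBDE. H2-Aa was at 8854, 7887 and 8387 CPM, then at 5267, 4626 and 6972 CPM, and then at 7400, 9009 and 7968 CPM. The same separation thus held for the invariant chain and the I-A alpha chain. In both genes VCD_High_PBDE_E2 was the highest of the 3 with E2 alone.

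H2-Eb1 ranged from 6621 to 8233 CPM without hormone, from 3874 to 5369 CPM with E2 alone and from 6009 to 7539 CPM with P4. H2-DMb1 ranged over 563.1 to 636.6, 364.1 to 477.4 and 528.1 to 729.0 CPM. H2-DMa (583.7 to 625.3, 332.7 to 496.0 and 473.7 to 696.5 CPM) overlapped between E2 alone and E2 with P4. Ciita, the least abundant, overlapped throughout, at 16.55 to 47.84, 12.3 to 24.43 and 23.21 to 42.11 CPM. How many of all genes set E2 alone below the other libraries of the layout was not counted.

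**Figure D2:**
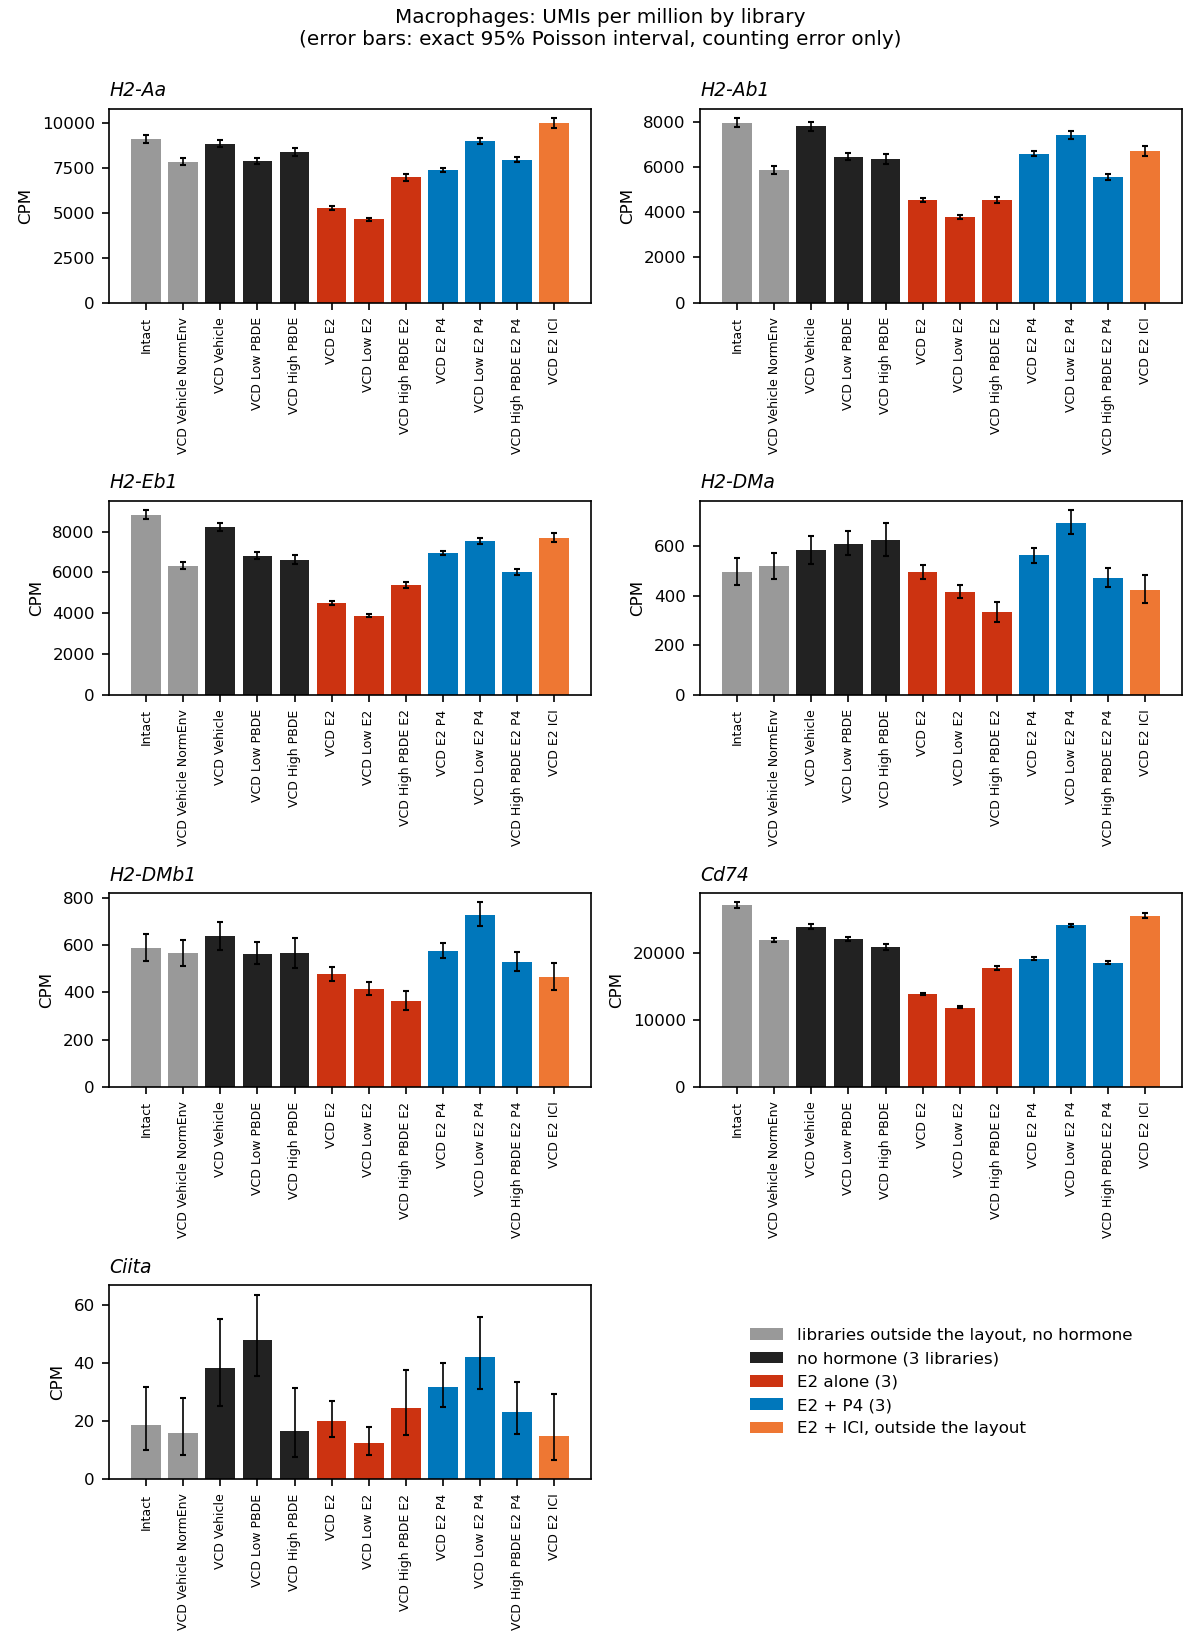
Level of each member in macrophages (CPM, linear axes from 0) in all 12 libraries, coloured by hormone state, with exact 95% Poisson intervals that cover counting error only. For H2-Ab1 the 3 libraries with E2 alone sit at 3791 to 4565 CPM, below the other 6 of the hormone layout, at 5580 to 7817 CPM.

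Set against all genes, these differences did not pass the test. For hormone (E2 and E2 + P4 averaged) relative to none, H2-Ab1 averaged 5418 and 6876 CPM (log2 difference −0.40, SE 0.117, adjusted p = 0.210 by edgeR). All 7 members had negative values, from −0.25 for H2-DMb1 to −0.60 for Ciita. Of them 0 of 7 were called (adjusted p = 0.210 to 0.493), while 0.174% of all genes were. The unadjusted p was below 0.05 for 5 of 7 members and for 997 of the 8608 genes, and DESeq2 called 0 members. In E2 + P4 against E2 alone, H2-Ab1 averaged 6535 ± 923 against 4301 ± 442 CPM (SD, n = 3 each), a log2 difference of 0.65 (SE 0.137, adjusted p = 0.116 by edgeR). All 7 had positive values there, from 0.53 for H2-DMa to 0.91 for Ciita; 0 of 7 were called, and 0.267% of all genes were. The unadjusted p was below 0.05 for all 7 members in this contrast, as for 471 of 8608 genes tested.

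E2 alone against no hormone was added after the levels had been seen. The differences were −0.72 for H2-Ab1 (SE 0.137, adjusted p = 0.0922), −0.71 for H2-Eb1, −0.68 for Cd74, −0.64 for H2-Aa, −0.61 for H2-DMa, −0.55 for H2-DMb1 and −1.05 for Ciita, again with 0 of 7 called (0.0813% of all genes were). The library VCD_High_PBDE_E2 weighed on both contrasts. Without it, 4 members (H2-Aa, H2-Ab1, H2-Eb1 and Cd74) passed in each, against 86 of 8565 genes with E2 alone and 46 from E2 alone to E2 + P4: H2-Ab1 fell by 0.86 on the log2 scale with E2 alone (adjusted p = 0.0173) and rose by 0.80 from E2 alone to E2 + P4 (adjusted p = 0.0319). Without VCD_Low_E2_P4, H2-Ab1 passed with E2 alone (adjusted p = 0.0378). Over 19 alternatives its adjusted p ran from 2.42e-07 to 0.390. Without a filter on low counts, 4, 6 and 7 members passed in the hormone, the P4 and the E2 contrast, against 287, 110 and 239 of 16075 genes. DESeq2 called 0, 1 and 4 members, in the P4 and the E2 contrast against 13 of 6271 and 42 of 4769 genes.

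Per macrophage, thinned to 5000 UMIs so that depth is alike, the median number of H2-Ab1 UMIs was 33.5 to 41 in the libraries without hormone, 16.5 to 23 with E2 alone and 25 to 37.5 with E2 and P4. The share of macrophages with under 10 H2-Ab1 UMIs was 1.89 to 17.4%, 31.6 to 33.3% and 10.5 to 23.6%. For Cd74 the share under 10 UMIs was 0%, 11.1 to 16.4% and 0 to 5.62%. Libraries with E2 alone thus held more macrophages with few class II transcripts, and their upper quartile was lower as well (26.25 to 38 against 44.25 to 54 UMIs of H2-Ab1). In bulk sums, fewer class II-rich cells and less RNA per cell cannot be told apart.

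**Figure D3:**
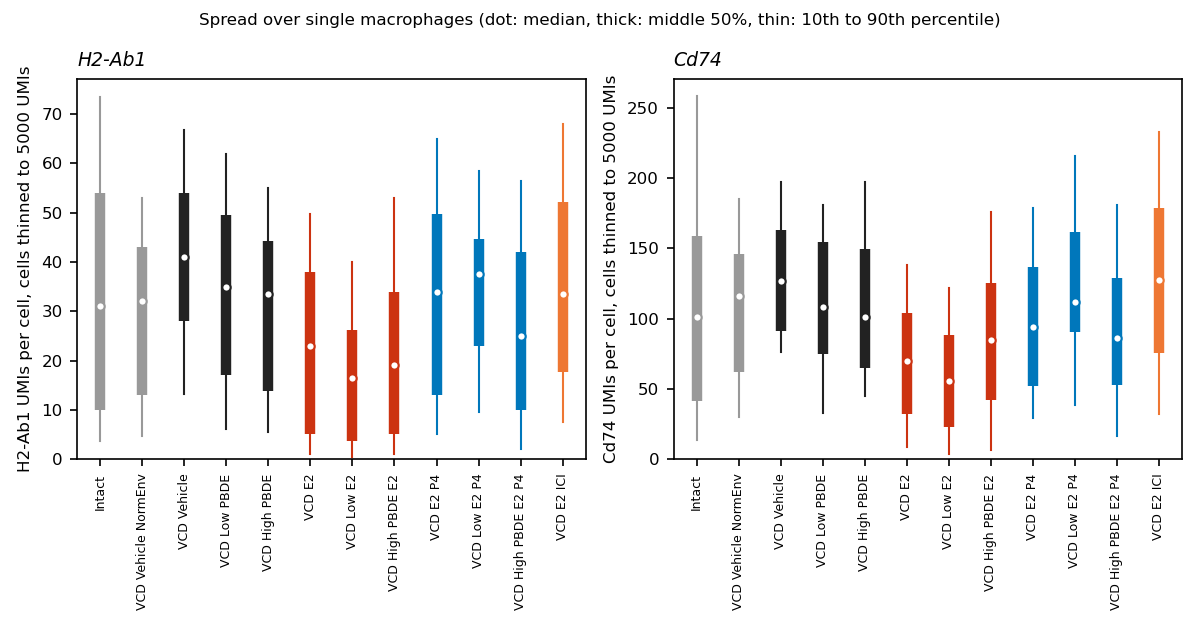
UMIs of H2-Ab1 (left) and Cd74 (right) per single macrophage after thinning to 5000 UMIs, by library. Dots are medians, thick bars the middle 50% of cells and thin bars the 10th to 90th percentile; medians of H2-Ab1 with E2 alone lie at 16.5 to 23 UMIs, against 33.5 to 41 UMIs without hormone.

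The summed level of the 8 macrophage markers in these cells was 11200 to 11840 CPM without hormone, 11530 to 15010 CPM with E2 alone and 11320 to 13990 CPM with P4. That of the 8 monocyte markers was 64.37 to 340.7, 118.6 to 776.1 and 345.6 to 577.7 CPM, and that of the 8 DC2 markers 1408 to 1828, 1600 to 1736 and 1575 to 1828 CPM. Median depth ran from 9613.5 to 16561 UMIs per macrophage over the 12 libraries, with VCD_Low_E2 the deepest and the lowest for H2-Ab1. The part of these values in the result was not tested.

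Of the genes around the members, 1 of 9 endosomal genes rose with hormone in macrophages: Ifi30 averaged 511.7 CPM with and 269.1 CPM without hormone, a log2 difference of 0.90 (SE 0.136, adjusted p = 0.0218). Its level was 215.2 to 333.9 CPM in the 3 libraries without hormone, 440.5 to 462.9 CPM with E2 alone and 513.7 to 603.5 CPM with P4, with no overlap. The median of the 9 was 0.48, against −0.02 over all genes. No gene of the other lists passed in macrophages: 0 of 6 promoter-bound factors, 0 of 7 of the interferon-gamma route (which induces Ciita), 0 of 3 of class II turnover, 0 of 3 of costimulation, 0 of 3 of the Cd74 ligand and co-receptor list, and 0 of 1 each of other class II chains and of receptors that read class II.

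The libraries outside the layout bear on the same question as values only. In Intact macrophages H2-Ab1 stood at 7966 CPM and Cd74 at 27110 CPM. In VCD_Vehicle_NormEnv they stood at 5859 and 21850 CPM, and in VCD_E2_ICI, where the degrader was given with E2, at 6710 and 25540 CPM. H2-Aa in VCD_E2_ICI was at 10010 CPM, the highest of the 12 libraries. All 3 libraries thus lay above those with E2 alone for H2-Aa, H2-Ab1, H2-Eb1 and Cd74, but for H2-DMa (424.7 CPM) and H2-DMb1 (463.7 CPM) VCD_E2_ICI lay within their range. For Ciita, Intact (18.5 CPM), VCD_Vehicle_NormEnv (15.87 CPM) and VCD_E2_ICI (14.84 CPM) all lay within the range of E2 alone.

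PBDE differences in macrophages were small. For low PBDE against none the members ranged from −0.08 (H2-Ab1, SE 0.137) to 0.12 (Ciita, SE 0.315) on the log2 scale, with 0 of 7 called by edgeR or DESeq2 and 0 below an unadjusted p of 0.05. In this contrast 0% of all genes were called, and 235 of 8608 had an unadjusted p below 0.05. For high against none they ranged from −0.38 (Ciita, SE 0.358) to 0.16 (H2-Aa, SE 0.147), with 0 of 7 called, 0 below an unadjusted p of 0.05, 0 called by DESeq2 and 0.29% of all genes called.

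Over the 12 libraries within macrophages, the genes most like the members' mean included Lilrb4a (r = 0.854), Elmsan1 (r = 0.821), Golgb1 (r = 0.786), Rpl10 (r = 0.772), Tnip2 (r = 0.754), Fam96b (r = 0.739) and Impdh2 (r = 0.737), out of 5353 genes. Pairs of members had r of 0.317 to 0.978 (median 0.61), as a description over 12 libraries of unequal depth.

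Dendritic cells held their class II levels closer together. H2-Ab1 was at 11700, 9770 and 10020 CPM without hormone, at 8958, 8488 and 9250 CPM with E2 alone and at 10870, 10040 and 9376 CPM with E2 and P4 (no, low and high PBDE in each). For H2-Ab1 the 3 libraries with E2 alone were the lowest of the 9, by a small margin: 9250 CPM against 9376 CPM for the nearest. For every other member, E2 alone and no hormone overlapped. Examples are H2-Aa (8365 to 10810 CPM with E2 alone, 9869 to 12020 CPM without hormone) and Cd74 (21980 to 29820 and 26310 to 31990 CPM).

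No member passed in dendritic cells. Hormone against none gave values from −0.21 for Cd74 (SE 0.0844, adjusted p = 0.478) to −0.04 for H2-DMb1, with 0 of 7 called and 0.42% of all genes called. E2 + P4 against E2 gave 0.13 (H2-DMa) to 0.28 (H2-DMb1, SE 0.126), with 0 of 7 called and 0% of all genes called. Low PBDE gave −0.42 (Ciita) to −0.02 (H2-DMb1), with 0 of 7 called and 0% of all genes called, and high PBDE −0.16 (H2-Ab1) to 0.15 (H2-Aa), with 0 of 7 called and 0.118% of all genes called. At an unadjusted p below 0.05 there were 4, 5, 3 and 0 members in these 4 contrasts, and DESeq2 called 0 in each. Over all 7623 genes, 687, 643, 502 and 627 had an unadjusted p below 0.05 in the same order. In DC2 cells thinned to 5000 UMIs the median of H2-Ab1 was 47 to 64, 45 to 51 and 48 to 56.5 UMIs without hormone, with E2 and with E2 and P4. None of the genes of the 8 pathway lists passed in dendritic cells for hormone against none. The monocyte marker sum was 140.4 to 425.5 CPM without hormone, 516.5 to 650.2 CPM with E2 alone and 595.7 to 937.4 CPM with P4.

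**Figure D4:**
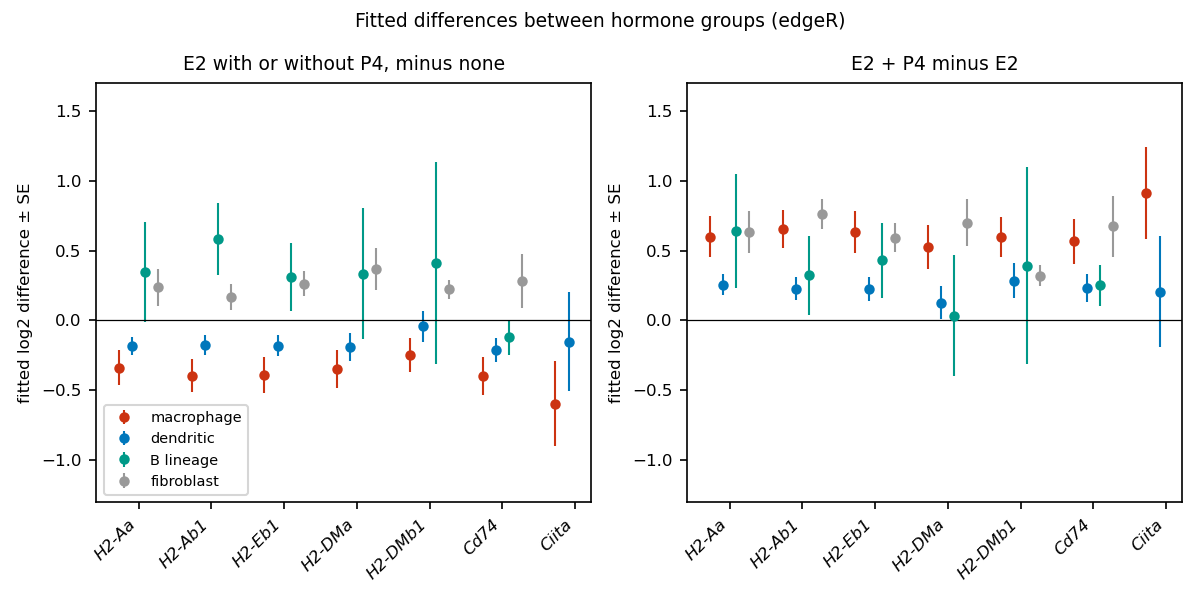
Fitted log2 differences of the members (points, with SE bars) for hormone against none (left) and E2 + P4 against E2 (right) in 4 gated populations; Ciita is missing where its counts were too low to test. In macrophages all 7 lie below 0 on the left, from −0.25 to −0.60, and above 0 on the right, from 0.53 to 0.91, and none passed the adjusted test in these panels.

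In the B-lineage gate, 7 of the 9 libraries had at least 10 cells, and Ciita was too low to test. Low PBDE against none gave a log2 difference of −1.78 for H2-Aa (SE 0.342, adjusted p = 0.0420) and −1.43 for H2-Eb1 (SE 0.228, adjusted p = 0.0277), so that 2 of 6 members tested fell, where 0.46% of all genes were called. H2-Aa was at 535.4 CPM in VCD_Vehicle, 844.8 in VCD_E2 and 662.9 in VCD_E2_P4. It was at 194.0, 102.1 and 369.7 CPM in VCD_Low_PBDE, VCD_Low_E2 and VCD_Low_E2_P4. With the high dose it was at 1551 CPM in VCD_High_PBDE (9 cells), 127.7 in VCD_High_PBDE_E2 (11 cells) and 198.5 in VCD_High_PBDE_E2_P4 (8 cells). Outside the layout, H2-Aa in Intact (119.9 CPM), VCD_Vehicle_NormEnv (212.6 CPM) and VCD_E2_ICI (227.4 CPM) lay within the low-dose range. H2-Eb1 was at 775.6, 730.6 and 796.3 CPM without PBDE and at 209.7, 269.7 and 434.2 CPM with the low dose, in the same order of hormone. With the high dose it was at 1222, 184.4 and 473.9 CPM. Outside the layout, H2-Eb1 in Intact (279.8 CPM), VCD_Vehicle_NormEnv (252.9 CPM) and VCD_E2_ICI (310.9 CPM) lay within the low-dose range.

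Cells without plasma markers moved with this result. They were 3 of 11 cells of the gate in VCD_Vehicle, 8 of 17 in VCD_E2 and 3 of 16 in VCD_E2_P4, but 1 of 16 in VCD_Low_PBDE, 0 of 22 in VCD_Low_E2 and 2 of 70 in VCD_Low_E2_P4. At the 10% mitochondrial limit the difference of H2-Aa was 0.12 (adjusted p = 1.0) within plasma-marked cells and 0.18 (adjusted p = 0.992) within unmarked cells, the opposite sign of the whole gate. H2-Eb1 gave −0.32 and 0.07. In the whole gate, neither gene passed without VCD_Low_PBDE (H2-Aa −1.91, adjusted p = 0.381) or without VCD_High_PBDE_E2 (H2-Aa −1.78, adjusted p = 0.102; H2-Eb1 −1.44, adjusted p = 0.0508). With a stricter gate, with clusters, with the run tag as a further term or with VCD_Vehicle_NormEnv added, 0 members passed, although the differences stayed at −1.81, −1.36, −1.45 and −1.51 for H2-Aa and at −1.22, −1.29, −1.87 and −1.22 for H2-Eb1.

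The other contrasts in this gate called no member. Hormone against none gave −0.12 (Cd74) to 0.58 (H2-Ab1, SE 0.258, adjusted p = 0.963), with 0 of 6 called and 0.0969% of all genes called, and E2 + P4 against E2 gave 0.03 to 0.64, with 0 of 6 called and 0.194% of all genes called. High PBDE rested on 1 library, VCD_High_PBDE_E2, with 11 cells, since VCD_High_PBDE (9 cells) and VCD_High_PBDE_E2_P4 (8 cells) were under the limit. The spread in its tests came from the other 6 libraries, like which the lone library was assumed to vary, so its counts hold no replicate check of the high dose. It called 0 of 6, with 0.291% of all genes called. At an unadjusted p below 0.05 there were 1, 0 and 5 members in these 3 contrasts, against 210, 234 and 392 of 4130 genes. DESeq2 called 0, 0 and 2 members. In the last contrast it gave an adjusted p to 4 members and 447 genes, of which it called 18. Socs1, an inhibitor of interferon signalling, was 2.38 higher on the log2 scale with low PBDE (117.1 against 19.27 CPM, SE 0.389, adjusted p = 0.0277), a contrast in which the share of plasma-marked cells also differed. The part of that share in the value was not tested. In the lone library with high PBDE it stood at 349.9 CPM. In unmarked B cells at the 10% limit, H2-Aa differed by −0.28 with hormone (SE 0.154, adjusted p = 1.0).

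Fibroblasts answered whether stromal cells carry the presentation genes. Their levels, all libraries pooled, were 8.576 CPM for H2-Aa, 9.700 for H2-Ab1, 9.685 for H2-Eb1, 1.829 for H2-DMa, 7.491 for H2-DMb1, 22.33 for Cd74 and 0.0292 for Ciita (17 UMIs in 33179 cells). Macrophages were higher for all 7, where 79.6% of all genes differed, and so were 8 of 9 endosomal, 4 of 4 costimulatory and 3 of 3 turnover genes. Of the other class II genes 4 of 4 tested were higher, and of 2 receptors that read class II 1 was higher and 0 lower. The remaining lists went both ways. Of 6 promoter-bound factors 3 were higher and 2 lower in macrophages, of 8 genes of the interferon-gamma route 3 and 3, and of 3 of the Cd74 ligand and co-receptor list 2 and 1. The log2 differences ran from 6.07 for H2-DMb1 (SE 0.0964) and 8.10 for H2-DMa (SE 0.156) to 9.78 for Cd74 (SE 0.167). Of unthinned fibroblasts 11.6% had a UMI of H2-Aa and 24.9% of Cd74, and after thinning to 5000 UMIs 3.50% and 8.10%. The exact 95% interval for H2-Aa, 3.30 to 3.71%, pools cells and covers counting error only. Single libraries ran from 2.59 to 4.69%.

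Free leukocyte RNA gives UMIs in cells that do not express a gene, so these values were set beside genes that fibroblasts lack. The fibroblast level of 10 leukocyte genes (Tyrobp, Fcer1g, Lyz2, C1qa, C1qb, C1qc, Laptm5, Coro1a, Cd79a, Cd3e) was 0.175 to 0.782% of their level in gated leukocytes, with a median of 0.235%. Ptprc and Cd52 were 0 by the gate. H2-Aa stood at 0.208% of its leukocyte level, H2-Ab1 at 0.258%, H2-Eb1 at 0.277%, Cd74 at 0.187%, Ciita at 0.271% and H2-DMa at 0.535%. These 6 fall within the range of the leukocyte genes and were not told apart from background. H2-DMa lay above every gene of that list except Cd79a (0.782%).

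H2-DMb1 stood at 2.07% of its leukocyte level, above every gene of that list. Its ratio to H2-Aa was 0.576 to 1.09 in the fibroblasts of the 12 libraries and 0.0677 to 0.107 in their leukocytes, 6.65 to 16 times higher in fibroblasts in 12 of 12 libraries. This ratio was looked at because it stood out, and no test is given for it. VCD_E2_ICI and VCD_Low_E2_P4, with the highest summed leukocyte level in fibroblasts (35.79 and 48.14 CPM), had the lowest ratios, 0.576 and 0.653. No annotated gene overlaps H2-DMb1, and its neighbour H2-DMb2 stood at 0.456% of its leukocyte level. Reads that fit both genes leave this pair of counts uncertain, and their part in the ratio was not tested.

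In the 171 luminal epithelial cells (median 7061 UMIs), H2-DMb1 was at 34.02 CPM and was found in 34.5% of cells, in 16.7% after thinning of 90 cells (exact 95% interval 9.64 to 26.0). H2-DMa was at 23.75 CPM and was found in 30.4%, after thinning in 7.78% (3.18 to 15.4). H2-Aa was found in 15.8% and after thinning in 3.33% (0.693 to 9.43). These intervals pool cells over libraries and cover counting error only. The pooled level of H2-Aa, 65.89 CPM, rested on VCD_Low_E2_P4 (1061 CPM in 9 cells). The median library was at 9.758 CPM for H2-Aa, 28.12 CPM for H2-DMb1 and 21.76 CPM for H2-DMa. Ciita was not found in these 171 cells.

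**Figure D5:**
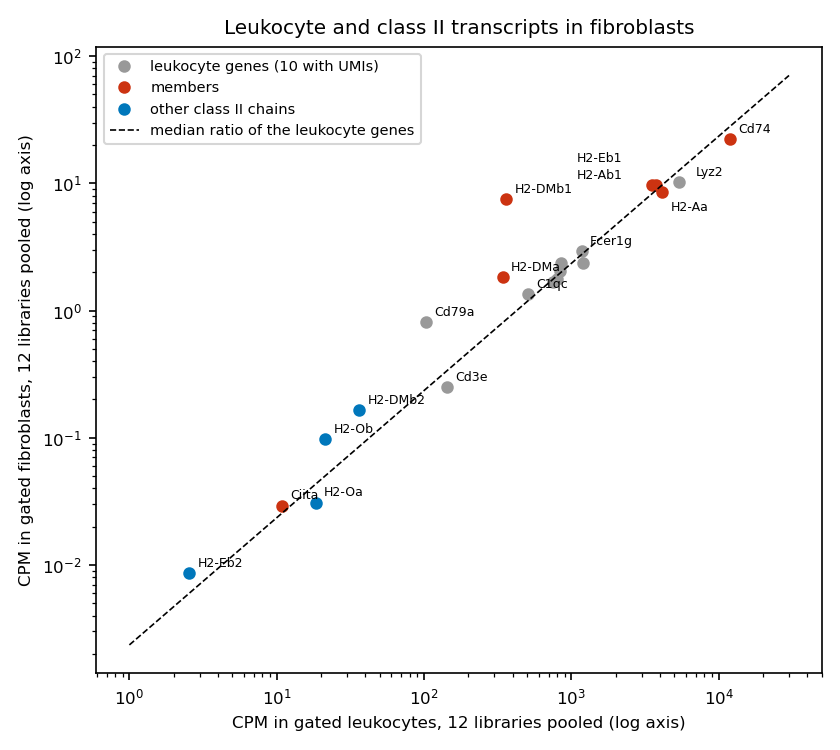
Level in gated fibroblasts against level in gated leukocytes (CPM, both axes logarithmic, 12 libraries pooled) for members, other class II genes and leukocyte genes, with a dashed line at the leukocyte genes' median ratio of 0.235%. H2-DMb1, at 7.491 CPM in fibroblasts, lies farthest above the line, at 2.07% of its leukocyte level.

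Between groups, H2-Ab1 in fibroblasts was at 9.144, 8.429 and 7.768 CPM without hormone, at 9.341, 8.036 and 5.624 CPM with E2 and at 13.12, 14.27 and 10.47 CPM with E2 and P4 (no, low and high PBDE). The libraries with P4 were the highest. The summed level of the leukocyte genes in the same cells was 15.84 to 30.82, 14.63 to 25.4 and 23.76 to 48.14 CPM. Its part in the values was not tested. E2 + P4 against E2 gave 0.32 (H2-DMb1) to 0.76 (H2-Ab1, SE 0.107, adjusted p = 0.192), with 0 of 6 tested members called and 0.0133% of all genes called. The unadjusted p was below 0.05 for all 6, against 1420 of 15022 genes, and DESeq2 called 2 of them, against 109 of 15022 genes.

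Hormone against none gave 0.16 (H2-Ab1) to 0.37 (H2-DMa) in fibroblasts, with 0 of 6 called, where 18.7% of all genes were called. H2-DMb1 was closest, at 5.805 to 6.902 CPM without and 6.462 to 9.003 CPM with hormone (0.22, SE 0.0657, adjusted p = 0.0552). Low PBDE called 0 of 6 and 0% of all genes, and high PBDE 0 of 6 and 0.313% of all genes, with H2-Ab1 at −0.47 (SE 0.108, adjusted p = 0.0868). At an unadjusted p below 0.05 there were 3, 0 and 3 members for hormone, low and high PBDE, and DESeq2 called 0, 0 and 1. Of the 15022 genes, 5298, 494 and 3125 had an unadjusted p below 0.05 in the same order.

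Of 7 promoter-bound factors in fibroblasts, 3 fell with hormone, in the contrast that called 18.7% of all genes: Rfxap of the RFX complex by 0.25 on the log2 scale (SE 0.0616, adjusted p = 0.0324), and Nfya and Nfyb of NF-Y by 0.24 and 0.30. The median of this list was −0.11, against −0.01 over all genes. Ifngr2, a chain of the interferon-gamma receptor, rose by 0.32 (SE 0.0796, adjusted p = 0.0333). The median of the interferon-gamma list was −0.0525. Of 9 endosomal genes 2 rose, Ctsh by 0.63 and Lgmn by 0.47. Icosl, a costimulatory ligand, fell by 0.93 (SE 0.0915, adjusted p = 0.00230), 1 of 4 of its list, whose median was 0.31. Jak2 fell by 0.52 with high PBDE (SE 0.0694, adjusted p = 0.0468).

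The hormone effect was then compared between macrophages and fibroblasts in 1 model with the library as a block. The difference of the effects (macrophages minus fibroblasts) passed for 5 of 7 members, where 1.83% of all genes did: H2-Aa −0.52 (SE 0.128, adjusted p = 0.00661), H2-Ab1 −0.50, H2-Eb1 −0.60, H2-DMa −0.65 and Cd74 −0.61 (SE 0.116, adjusted p = 7.71e-05). H2-DMb1 (−0.40, adjusted p = 0.229) and Ciita (−2.14, SE 1.33, adjusted p = 0.708) did not pass. The effect on neither side passed by itself, and the part of free leukocyte RNA in the fibroblast side was not tested. The call rested on single libraries: 0 members passed without VCD_Low_PBDE (Cd74 −0.44, adjusted p = 0.144), 1 without VCD_Vehicle (Cd74) and 3 without VCD_E2_P4 (H2-Aa, H2-Eb1 and Cd74). Over all genes, 182 of 14668, 181 of 14701 and 189 of 14659 passed in the same order. The call was also lost with clusters in place of gates (0, and 9 of 14974 genes) and with the run tag as a further term (0, and 207 of 15422 genes). By DESeq2 it was lost except for H2-DMa (1, and 80 of 14780 genes). The differences of these 5 members did not all shrink there: they were −0.90 to −0.66 with clusters, −0.55 to −0.32 with the run tag and −0.74 to −0.58 by DESeq2.

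Summed over all cells, no member passed in any contrast. Hormone against none gave 0.09 (H2-Ab1) to 0.22 (H2-DMb1) with 0 of 7 called, while 12.2% of all genes were called, and E2 + P4 against E2 gave 0.09 to 0.33 with 0 of 7 called and 0.0493% of all genes called. Low PBDE called 0 of 7 (0% of all genes) and high PBDE 0 of 7 (0.0308% of all genes). At an unadjusted p below 0.05 there were 0, 1, 0 and 0 members in these 4 contrasts, and DESeq2 called 0 in each. Of the 16233 genes, 4970, 1554, 460 and 3262 had an unadjusted p below 0.05 in the same order. Library levels of H2-Aa ran from 318.5 CPM in VCD_Vehicle_NormEnv to 711.4 CPM in VCD_High_PBDE_E2_P4. In the same sums the genes that fell with hormone included Rfxap, Nfya, Nfyb and Icosl, and those that rose included Ctsh and Lgmn; fibroblasts were most of the cells.

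The shares of the presenting cells were compared between the same libraries, and with the main gates and filters none passed with all 9. Under some alternatives that keep all 9, the dendritic, B-lineage and fibroblast shares passed, as listed further below. Macrophages were 1.63 ± 0.123% of the cells in the 3 libraries without hormone and 3.31 ± 1.22% in the 6 with it (SD), a difference of 1.67 points (exact two-sided permutation test, p = 0.107, 84 relabelings, smallest possible p 0.012). The relabelings took no account of PBDE state, here and for the shares below. The libraries without hormone held 1.49 to 1.71%. Of the 6 with hormone, VCD_Low_E2_P4 held 1.37%, below them, and the others 3.02 to 5.11%. In VCD_Low_E2_P4 no gate took 1968 of 7570 cells, the most of any library. Its median depth, 11843 UMIs per cell, was the lowest. The part of this in its shares was not tested. Without VCD_Low_E2_P4 the difference was 2.06 points (exact permutation p = 0.0179).

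Dendritic cells were 1.18 ± 0.249% without and 1.72 ± 0.480% with hormone (exact permutation p = 0.143, n = 3 and 6), and without VCD_Low_E2_P4 the difference of 0.718 points passed (exact permutation p = 0.0179). Cells of the B-lineage gate were 0.302 ± 0.0184% and 0.514 ± 0.208% (exact permutation p = 0.0952), with VCD_Low_E2_P4 the highest at 0.925%. Without that library the B-lineage difference shrank to 0.13 points and passed (exact permutation p = 0.0357). Fibroblasts were 77.8 ± 3.68% and 69.1 ± 5.73% (exact permutation p = 0.0595). Their difference passed without VCD_Low_PBDE (−10.8 points) or without VCD_High_PBDE_E2 (−10.6 points, exact permutation p = 0.0357 for each). Shares of cells can be set by dissociation and by the dead-cell removal, whose part was not tested.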

How the data were processed

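Mouse mammary gland cells of 12 groups, 1 Chromium v3 3′ library each, were analysed. The deposited matrices hold raw counts of UMIs for each gene in each barcode; the labels name Cell Ranger 3.1.0 and mm10, and no scaling had been applied. Library totals are given with the results and limit rare genes. Groups came from the labels.

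Barcodes with at least 500 genes, 1000 UMIs and at most 5% mitochondrial UMIs were kept. Cells were gated by marker lists: for most types at least 50% of the list and more of it than of any other list; for B cells 3 markers; for fibroblasts 40 UMIs of 8 markers per 10000, 7 of 8 found and no Ptprc or Cd52. Of all passing cells, 306 lay near the fibroblast limit (25 to 63). Of the macrophages 48 held just the 4 markers needed, and 83 cells held 1 fewer. No doublets were removed in the main fit; the alternative dropped 2040 cells nearest to simulated doublets.

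Counts were summed per library and type (at least 10 cells) and tested with edgeR 4.0.16 (quasi-likelihood, TMM, filterByExpr) in R 4.3.3, additive in hormone and PBDE; values in the text are fitted log2 differences with SE, or means of CPM. Adjusted p is Benjamini-Hochberg over all genes tested, threshold 0.05. DESeq2 1.42.0 was an alternative. The edgeR steps were tested on simulated data. Shares were compared by exact permutation of the libraries, without regard to PBDE state. The rule for names was all 7 members in each comparison and, of each pathway list, the genes past the threshold, at most 4 by size. Ifi30 in the comparison of dendritic cells and macrophages and the H2-DMb1 ratio were named after their values had been seen.

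The members, gene lists and contrasts were chosen with earlier results of these data known. E2 alone against none, the split of the B gate, the ratio of H2-DMb1 to H2-Aa and the promoter motifs were added after seeing the data. Alternatives were the scaling, no filter on low counts, the 10% mitochondrial limit, a stricter gate, clusters (30 components, 20 neighbours, resolution 1.0), doublets or shared barcodes removed, the run tag as a term, VCD_Vehicle_NormEnv added, and each library left out in turn. Results for a few genes are not reported here.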

Additional observations from a re-analysis of the deposited data

Results flagged for a closer look

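In 35 sets of 6 hormone libraries, 1 per member and population, 2 held a library that stood far from the other 5; chance gives about 1 in 20. Ciita in the B-lineage gate was at 6.404 CPM in VCD_High_PBDE_E2_P4, which held 8 cells of the gate, against 1.417 CPM in the nearest of the 6; VCD_High_PBDE, without hormone, was at 5.222 CPM with 9 cells. All 12 libraries together held 4 UMIs of Ciita in this gate. Cd74 in fibroblasts was at 43.35 CPM in VCD_Low_E2_P4, against 23.11 CPM in the nearest, and that library also had the highest summed leukocyte level in fibroblasts, 48.14 CPM.

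The hormone effect differed between macrophages and fibroblasts, by the test of the difference itself, for H2-Aa (−0.52 on the log2 scale), H2-Ab1 (−0.50), H2-Eb1 (−0.60), H2-DMa (−0.65) and Cd74 (−0.61). These are the values whose dependence on single libraries and on the run tag is given above. In fibroblasts these genes were not told apart from background, and the part of free leukocyte RNA in the difference was not tested. H2-DMb1, which stood above every gene of the leukocyte list in fibroblasts, did not pass.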

How the results depend on the processing

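Of 1702 recomputed values for 113 results, 1552 kept their direction and their side of the threshold. Counts of members called that moved from 0 were as follows. Without a filter on low counts, the macrophage counts were 4 (hormone), 6 (E2 + P4 against E2) and 7 (E2 alone), with 287, 110 and 239 of 16075 genes called. The dendritic counts were 1 (hormone) and 1 (E2 + P4 against E2), with 229 and 206 of 15286 genes called. By DESeq2 the counts were 1 and 4 in macrophages (E2 + P4 against E2, E2 alone), with 13 of 6271 and 42 of 4769 genes called. In fibroblasts they were 2 (E2 + P4 against E2) and 1 (high PBDE), with 109 of 15022 and 798 of 12983 genes called. The fibroblast hormone count was 1 without TMM, at the 10% mitochondrial limit, with clusters and with VCD_Vehicle_NormEnv added. There 2685 of 15022, 2877 of 15146, 2668 of 15000 and 3224 of 14939 genes were called. With a library left out, counts in macrophages ran from 0 to 4 for E2 + P4 against E2 and for E2 alone. Both were 4 without VCD_High_PBDE_E2, with 46 and 86 of 8565 genes called. In the B-lineage gate they ran from 0 to 1 for E2 + P4 against E2 (1 without VCD_E2, 20 of 4249 genes called). For hormone over all cells they ran from 0 to 1 (1 without VCD_Low_E2_P4, 1385 of 15989 genes called). High-PBDE counts of the B-lineage gate also moved but are left out, since 1 library with enough cells had that dose.

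The low-PBDE count of the B-lineage gate, 2, became 0 in plasma-marked or in unmarked cells at the 10% limit, with a stricter gate, clusters, the run tag or VCD_Vehicle_NormEnv added. It became 1 with doublets removed (9 of 4100 genes called), 4 without the filter (102 of 13769), and 0 to 3 with a library left out. H2-Aa turned to 0.12 and 0.18 and H2-Eb1 to 0.0735 there. The count below macrophages became 4 with unmarked B cells (5968 of 10644 genes called), and Ciita of dendritic minus B cells turned to −0.00805. The macrophage and fibroblast difference, 5, became 1 by DESeq2 (80 of 14780 genes called), 0 with clusters (9 of 14974) or the run tag (207 of 15422) and 0 to 5 with a library left out.

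Share differences with a library left out were 1.31 to 2.06 points (macrophages), 0.457 to 0.718 (dendritic), 0.13 to 0.242 (B-lineage) and −10.8 to −7.22 (fibroblasts). Past the threshold were macrophages (2.06), dendritic cells (0.718) and the B-lineage gate (0.13) without VCD_Low_E2_P4, fibroblasts without VCD_Low_PBDE (−10.8) or VCD_High_PBDE_E2 (−10.6), dendritic cells with clusters (1.91), the B-lineage gate when stricter (0.161), and fibroblasts with clusters (−11.3), doublets removed (−8.59) or shared barcodes removed (−8.91). The cause of these moves was not tested.

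Groups could not be paired by replicate, because each group was 1 library and the labels carry no replicate numbers. The additive fit took PBDE state into account when hormone states were compared, but the permutation tests of shares did not. The library served as a block only between cell types. The 9 libraries compared held 52 to 154 macrophages and 8 to 70 B-lineage cells each. At the 5% mitochondrial limit the B-lineage fit used the 7 with at least 10 cells, of which 1 had high PBDE, so the high-PBDE counts of that gate rest on the spread of the other libraries.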

Other observations

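Monocytes, which were in no test, showed a spread wider than that of macrophages. H2-Aa in the monocyte gate was at 537.4 CPM in VCD_E2 and 478.1 CPM in VCD_Low_E2, against 2791 CPM in VCD_High_PBDE_E2, which held 11 monocytes. It was at 1810, 1889 and 1690 CPM in the 3 libraries without hormone and at 1117, 1755 and 3941 CPM with E2 and P4. Cd74 followed the same order at its ends, 1912 CPM in VCD_Low_E2 and 12520 CPM in VCD_High_PBDE_E2_P4.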
